A study of Rattus norvegicus with 9 samples.

Results

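The choroid plexus is the tissue in the brain ventricles that makes cerebrospinal fluid, and one of its sheets lies beside the hippocampus. Its epithelium secretes transthyretin and carries folate and water into the fluid, while the vessels, stroma and meninges near it express insulin-like growth factor 2. Because the epithelium makes some transcripts in very large amounts, even small pieces of it left on a dissected hippocampus can be read on an array, and genes of this kind serve as a check of tissue carried along. The 6 genes described here are Ttr, Enpp2, Folr1, Aqp1, Igf2 and Igfbp2. They were taken as every probe set annotated to exactly 1 of these symbols, which gave 10 of the 31042 non-control probe sets in the table. All 6 genes had at least 1 probe set.

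Expression was measured on 9 arrays of rat RNA that the labels describe as from hippocampal neurons, while the array titles name only brain, hippocampus. The 3 groups of 3 arrays each were control (artificial cerebrospinal fluid only), ketone bodies for 1 h and ketone bodies for 6 h. Strain, age, the ketone bodies used and the time in control fluid are not given in the labels, and nothing says whether the replicates came from separate animals, so p-values measure only the spread between these arrays. On this scale fewer cells of a type and less RNA per cell cannot be told apart. The cell types in the RNA were read by marker lists, each gene by its brightest probe set. All 10 listed neuron markers lay above the level that the low-value filter demanded, as did 12 of 13 hippocampal excitatory neuron markers on the array, but so did 8 of 8 astrocyte, 11 of 11 oligodendrocyte and 16 of 16 vessel markers. Markers such as Mbp (mean signal 6303), Gja1 (3888) and Cldn5 (479) were far above that level. By these signals the RNA held transcripts of glia and vessels beside those of neurons. The vessel markers Pecam1 (24.3) and Pdgfrb (26.1) were barely above it. The filter kept 18625 of 31042 probe sets, a share that counts every probe set and not the brightest of each gene. Lists of other regions passed it too. Among these, 8 of 8 striatal and 7 of 9 thalamus and habenula markers lay above it. Passing the filter therefore cannot show which region the RNA came from. Over the tested probe sets, Pearson's r lay between 0.949 and 0.987 for 2 arrays of 1 group, and between 0.945 and 0.988 for arrays of different groups.

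No difference between groups was called for any of the 6 genes, and they varied to different degrees: the highest signal was 1.32 times the lowest for Ttr and 3.90 times for Aqp1. Of the 10 probe sets, 6 passed the filter, 1 for each gene, and their mean signals ran from 33.3 for Aqp1 to 4369 for Ttr. The remaining 4 probe sets, 1 of Aqp1 and 3 of Igf2, lay below it. None of the 6 (0 in each comparison) had a limma adjusted p under 0.05 at 1 h, at 6 h or between the 2 times, where 0.0322%, 0.0268% and 0% of all 18625 probe sets fitted did. At unadjusted p under 0.05 there was 1 of 6 at 1 h (11.4% of all tested), 0 at 6 h (4.25%) and 1 between the times (2.72%), and each time it was Ttr. The signs were mixed, with 3 of 6 log2 changes positive at 1 h (55.3% of all tested), 3 of 6 at 6 h (53.8%) and 4 of 6 for 6 h against 1 h (47%). At 1 h and at 6 h, 44.7% and 46.2% of all tested were negative. The medians of the 6 were 0.036, 0.020 and 0.13, beside 0.029, 0.015 and -0.012 over all tested probe sets.

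**Figure D1:**
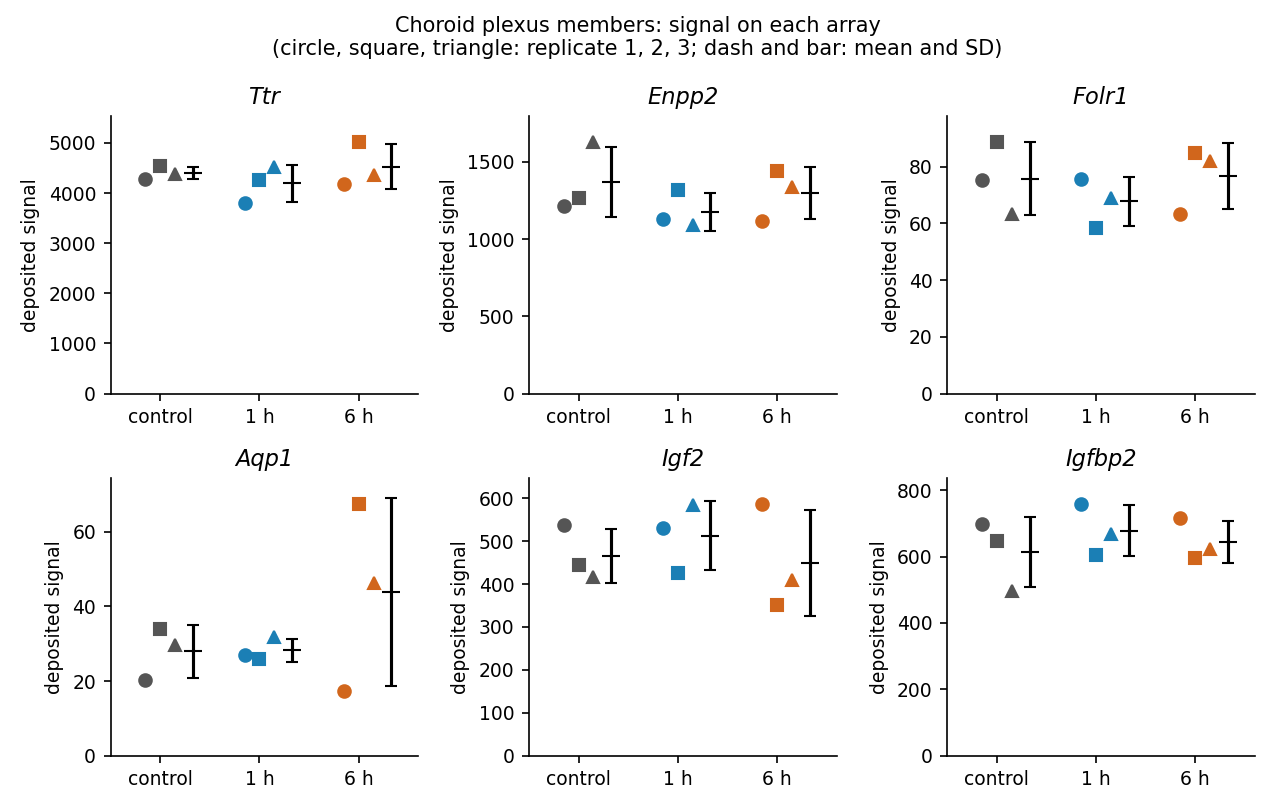
Deposited signal (linear, vertical axes from 0) of the 6 probe sets that passed the filter, by group; circles, squares and triangles are replicates 1, 2 and 3, and the dash and bar are the group mean and SD. The groups overlap for every gene on this scale; relative to its mean, the widest spread is that of Aqp1 at 6 h, from 17.3 to 67.6.

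Ttr encodes transthyretin, the carrier of thyroid hormone and retinol-binding protein in cerebrospinal fluid, and is the most used marker of choroid plexus epithelium. Its probe set (1367598_at) had signals of 4284, 4531 and 4373 on the control arrays, 3800, 4258 and 4513 at 1 h, and 4179, 5027 and 4354 at 6 h. As deposited the 3 groups overlapped: the lowest value belonged to a 1 h array and the highest to a 6 h array, and the highest was 1.32 times the lowest. After quantile normalization, which gives an array's probe sets the same set of values in the order of their signals, the picture was different. Ttr then had log2 means of 12.17 ± 0.02 in control, 11.96 ± 0.08 at 1 h and 12.15 ± 0.05 at 6 h (SD, n = 3 arrays). All 1 h values now lay below all control and all 6 h values. A 1 h group wholly below control was found for 8.26% of all tested probe sets, and a 6 h group wholly above 1 h for 3.55%. At 6 h against control the groups of all 6 genes overlapped, while those of 9.2% of all tested probe sets did not. The log2 change at 1 h was -0.21 (95% interval -0.34 to -0.09, limma adjusted p = 0.317), and for 6 h against 1 h it was 0.19 (0.07 to 0.32, adjusted p = 0.996); the first of these turned positive with arrays centred on their medians.

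The 1 h difference of Ttr depended on this scaling. With the values as deposited it was -0.072 ± 0.089 (SE, limma adjusted p = 0.757), and with median centring it turned to 0.032 ± 0.10 (adjusted p = 0.899). Under neither scaling did the 1 h values separate from control. A normalized value of a probe set follows from its rank on the array, and Ttr ranked 66, 62 and 71 of 31042 in control, 144, 105 and 108 at 1 h, and 86, 62 and 66 at 6 h. More probe sets had signals above that of Ttr on the 1 h arrays. Its own signals there were 3800, 4258 and 4513, beside 4284 to 4531 in control. Replicates 1 and 2 of the 1 h group thus lay below all control signals and replicate 3 within their range. At 6 h against control the log2 change was -0.020 ± 0.055 and also turned with the scaling, to 0.036 ± 0.089 as deposited and 0.11 ± 0.10 with median centring.

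**Figure D2:**
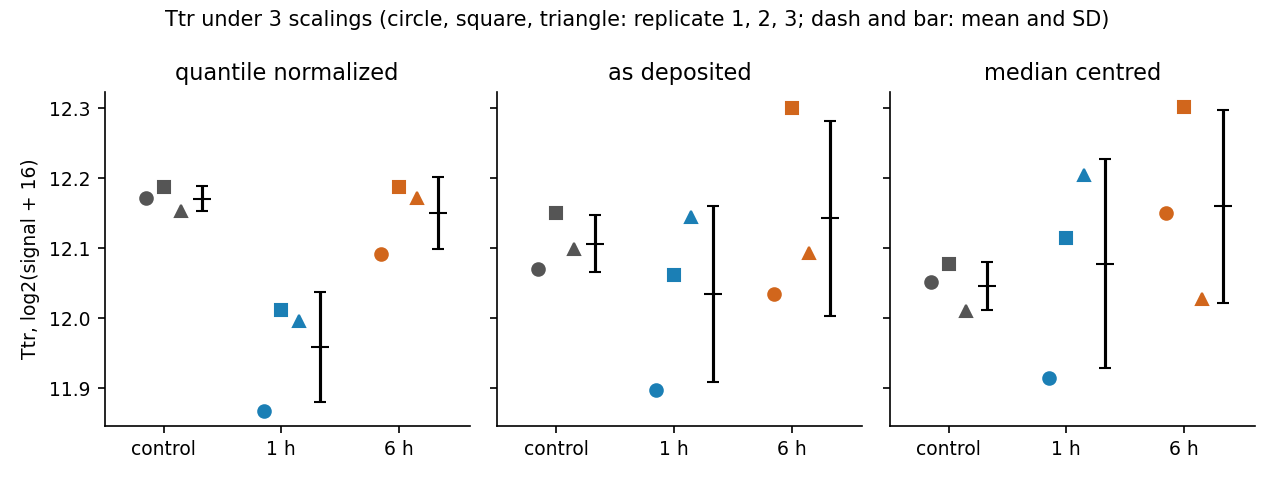
Ttr as log2(signal + 16) by group under quantile normalization, as deposited and centred on array medians; circles, squares and triangles are replicates 1, 2 and 3, and the dash and bar are the mean and SD of 3 arrays. All 1 h arrays stand below all others only under quantile normalization (mean 11.96). As deposited their mean is 12.03, below the control mean of 12.11, and with median centring it is 12.08, above the control mean of 12.05.

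A further probe set (1371237_a_at) is listed with Mt1f, Ttr and Mt1 together, so it is no member. Its signals were 639, 679 and 638 in control, 866, 1001 and 949 at 1 h, and 1031, 1099 and 1038 at 6 h. It rose at 6 h by 0.66 ± 0.08 on the log2 scale (SE, limma adjusted p = 0.0431) and had 0.49 ± 0.08 at 1 h (adjusted p = 0.133). The probe set of Ttr alone had -0.020 and -0.21 in the same comparisons, so the values of the shared probe set did not run with those of Ttr. Mt1 is a metallothionein gene, which binds zinc and copper, and which of the listed transcripts the shared probe set measured was not tested.

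Enpp2 encodes autotaxin, the secreted enzyme that makes lysophosphatidic acid. It is strongly expressed by choroid plexus epithelium and also by oligodendrocytes, so it marks the plexus less cleanly than Ttr. Its signals were 1214, 1268 and 1632 in control, 1128, 1315 and 1089 at 1 h, and 1117, 1443 and 1340 at 6 h. Control replicate 3 was the highest and the groups overlapped. The log2 change was -0.26 (95% interval -0.57 to 0.05, limma adjusted p = 0.496) at 1 h and -0.11 (-0.43 to 0.20, adjusted p = 0.987) at 6 h. Without control replicate 3 these became -0.12 at 1 h and 0.022 at 6 h, and the 6 h value also turned without 6 h replicate 1, to 0.0045, and with median centring, to 0.0053. The summed signal of oligodendrocyte markers ran from 25218 on control replicate 3 to 28633 on 1 h replicate 3, where Enpp2 was lowest. Mbp, Mog, Mag, Mobp, Cnp, Cldn11, Mal and Aspa were higher on the latter array. Only Ugt8 (1094 and 908), Ermn and Opalin were lower there, as Enpp2 was. The part of these cells in the Enpp2 values was not tested.

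Folr1, the folate receptor through which the epithelium moves folate into the fluid, had low but measured signals of 75.2, 88.8 and 63.3 in control, 75.7, 58.4 and 69.0 at 1 h, and 63.5, 84.8 and 81.8 at 6 h. The ranges of the 3 groups overlapped. Its log2 change was -0.030 (95% interval -0.36 to 0.30) at 1 h and 0.085 (-0.25 to 0.42) at 6 h, with limma adjusted p of 0.948 and 0.989. With this spread, a change of the size of that of Ttr was not detectable in either direction.

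Aqp1 encodes the water channel of the epithelium's apical membrane, and in brain tissue it is otherwise scarce. Its brighter probe set (1387651_at) had signals of 20.2, 34.0 and 29.8 in control, 26.9, 25.9 and 31.8 at 1 h, and 17.3, 67.6 and 46.4 at 6 h. At 6 h replicates 2 and 3 were above all other arrays and replicate 1 was below all other arrays. The log2 change at 6 h was 0.43 (95% interval -0.15 to 1.01, limma adjusted p = 0.987), the largest in size among the 6 genes in that comparison, and it was 0.15 without 6 h replicate 2 and 0.74 without 6 h replicate 1. At 1 h it was 0.10 (-0.48 to 0.68). With arrays near the filter's signal level of 21.0, the size of such a change also follows the pseudocount of 16. The other Aqp1 probe set (1369625_at) lay under the filter, with signals from 10.4 on control replicate 1 to 31.0 on 1 h replicate 3, and 6 h replicate 2 read 19.0 there. The Aqp1 peak on 6 h replicate 2 was thus seen in only 1 of its 2 probe sets.

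Igf2 is a growth factor made in the adult brain mainly by choroid plexus and leptomeninges, and Igfbp2 is a secreted protein that binds insulin-like growth factors and holds IGF2 in the fluid. Igf2 had signals of 537, 444 and 416 in control, 530.0, 426 and 583 at 1 h, and 588, 350.1 and 411 at 6 h in its bright probe set (1367571_a_at). The highest and the lowest array were both of the 6 h group. Its log2 change was 0.12 (95% interval -0.29 to 0.53, limma adjusted p = 0.807) at 1 h and -0.080 (-0.49 to 0.33, adjusted p = 0.991) at 6 h, and the latter turned to 0.070 without 6 h replicate 2, to 0.024 without control replicate 1 and to 0.0036 with median centring. The other 3 Igf2 probe sets were near the bottom of the scale, with all signals under 10 except 18.2 on 1 h replicate 3 in 1398322_at, and added no measure of its level. Igfbp2 had signals of 698, 647 and 495 in control, 759.7, 606 and 669 at 1 h, and 717, 595 and 622 at 6 h. Control replicate 3 was its lowest array. Its log2 change was 0.12 (-0.18 to 0.43, adjusted p = 0.732) at 1 h and 0.060 (-0.25 to 0.37, adjusted p = 0.991) at 6 h. Without control replicate 3 these became -0.022 and -0.086, and without 6 h replicate 1 the 6 h value was -0.0034.

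The promoters of Igf2 and Igfbp2 are shown because the values of this pair ran together over the 9 arrays (r = 0.67) while those of Enpp2 ran against both. Of the 6 genes, 4 (Ttr, Aqp1, Igf2 and Igfbp2) matched the RefSeq promoter table of build GRCr8, Igf2 with 2 start sites. The 250 bases before each start are given 5′ to 3′ on the gene's strand, with the GC box letters GGGCGG, the core that Sp factors bind, in capitals.
Igf2 at chr1:207250476-207250725, minus strand: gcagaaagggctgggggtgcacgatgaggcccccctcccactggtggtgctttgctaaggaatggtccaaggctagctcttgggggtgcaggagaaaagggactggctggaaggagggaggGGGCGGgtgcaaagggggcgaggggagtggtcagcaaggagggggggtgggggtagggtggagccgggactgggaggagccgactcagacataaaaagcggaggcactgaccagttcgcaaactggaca
Igf2 at chr1:207253981-207254230, minus strand: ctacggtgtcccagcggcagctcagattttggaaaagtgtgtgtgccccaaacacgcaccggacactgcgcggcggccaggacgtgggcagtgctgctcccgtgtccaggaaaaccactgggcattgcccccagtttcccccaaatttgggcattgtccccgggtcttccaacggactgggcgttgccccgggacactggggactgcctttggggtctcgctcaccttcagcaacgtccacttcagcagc
Igfbp2 at chr9:81864561-81864810, plus strand: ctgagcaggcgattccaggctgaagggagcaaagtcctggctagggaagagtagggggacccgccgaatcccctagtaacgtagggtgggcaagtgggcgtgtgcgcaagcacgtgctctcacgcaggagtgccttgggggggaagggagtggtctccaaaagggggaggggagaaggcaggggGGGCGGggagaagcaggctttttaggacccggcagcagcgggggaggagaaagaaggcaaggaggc
GGGCGG on either strand was found once at 129 bases before the start in the former Igf2 window, at 66 bases in the Igfbp2 window, at 87 bases in the Aqp1 window, and not in the other Igf2 window or that of Ttr. It occurs in 30.5% of the 33469 windows of the same length. The TATA letters TATAAA, searched on either strand with no possible overlap with GGGCGG, occur in 12.9% of windows and were found in that of Aqp1, 30 bases before its start, and in none of the other 4. The Ttr window (chr18:12218508-12218757) lies inside the span of its gene (12216684 to 12225972), as both Igf2 windows do inside theirs. Bases before other starts of these genes were not searched, so a missing match holds for the listed window only. The G and C content was 63.6% and 62.4% for Igf2, 64% for Igfbp2, 65.2% for Aqp1 and 40.4% for Ttr, beside a median of 51.2%. A match of letters is a description of the window and no measure of binding.

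**Figure D3:**
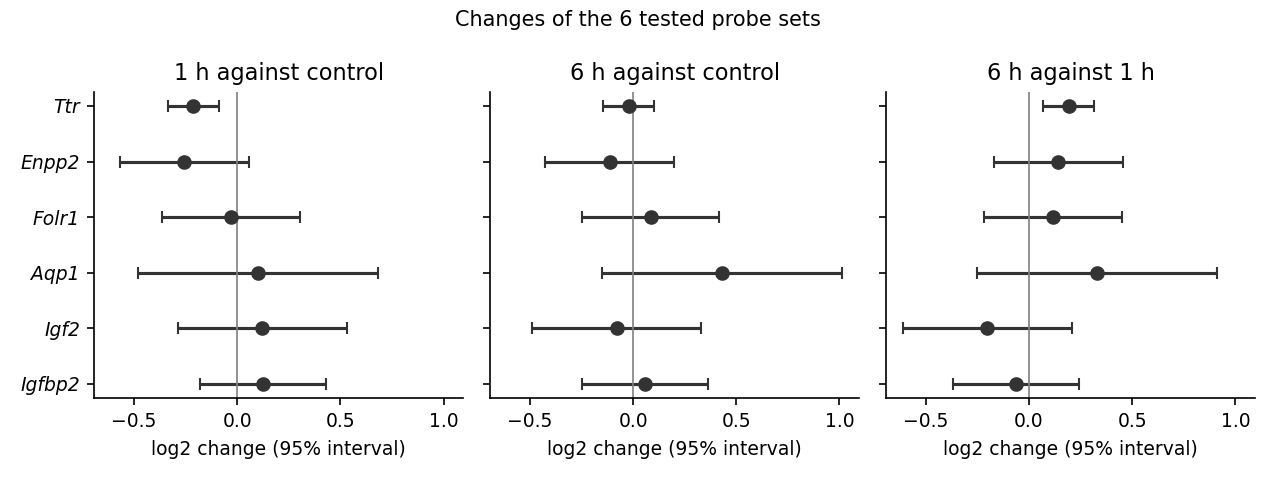
Log2 change (horizontal axes) of each of the 6 probe sets in the 3 comparisons, from quantile-normalized values, with 95% intervals from limma. The intervals cross 0 except for Ttr at 1 h (-0.21) and for 6 h against 1 h (0.19), and neither passes after adjustment over all tested probe sets; the 1 h direction of Ttr turns with median centring.

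For genes used as markers of carried-along tissue, the question is whether they are high on the same arrays, and the 6 genes were compared over the 9 arrays. Of the 15 pairs, 7 had a positive and 8 a negative Pearson correlation of their quantile-normalized log2 values. Ttr had r = 0.59 with Enpp2, 0.30 with Aqp1, 0.23 with Folr1, -0.45 with Igfbp2 and -0.49 with Igf2, and the exact 2-sided permutation p adjusted over these 5 was 0.395, 0.542, 0.557, 0.395 and 0.395. Spearman's rho of the same pairs was 0.65, 0.29, 0.50, -0.41 and -0.55, with exact permutation p of 0.0663, 0.452, 0.17, 0.271 and 0.133. Without 1 h replicates 1 and 3, the arrays farthest from the Ttr median, r was 0.31, 0.42, 0.69, -0.00023 and -0.22. Within groups (deviations from group means) r was 0.36, 0.55, 0.09, -0.46 and -0.50. The scaling mattered here too: as deposited, r of Ttr with Aqp1 was 0.71 (exact permutation p = 0.0383, adjusted over the 5 pairs 0.192), and with median centring r of Ttr with Enpp2 was 0.20 and that with Igfbp2 turned to 0.014.

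The relations with the smallest p among the 15 pairs were of opposite order. Enpp2 was low where Igf2 and Igfbp2 were high. With Igfbp2 it had r = -0.89 (exact permutation p = 0.00223, adjusted over 15 pairs 0.0334) and rho = -0.80 (p = 0.0138, adjusted 0.0956). With Igf2 it had r = -0.82 (exact permutation p = 0.00692, adjusted 0.0519) and rho = -0.92 (p = 0.00131, adjusted 0.0197). Within groups the 2 values of r were -0.90 and -0.88, and without control 3 and 1 h replicate 3, the arrays farthest from the Enpp2 median, -0.87 and -0.93. The first of these passed the adjusted threshold only in part of the settings: leaving out any 1 array gave r from -0.94 to -0.75, with the adjusted permutation p under 0.05 in 2 of 9 such sets (without control replicate 1 or 1 h replicate 3), and without control replicate 3 it was 0.14. Igf2 and Igfbp2 ran together, at r = 0.67 (exact permutation p = 0.0405, adjusted 0.152), rho = 0.75 (p = 0.0255, adjusted 0.0956), 0.68 within groups and 0.69 without 1 h replicate 3 and 6 h replicate 1. Folr1 and Aqp1, both of the epithelium, had r = 0.58 (exact permutation p = 0.101, adjusted 0.252), rho = 0.75 (p = 0.0255, adjusted 0.0956), 0.53 within groups and 0.74 without control replicate 3 and 1 h replicate 2; without 6 h replicate 2, where Aqp1 peaked, r was 0.38. Aqp1 with Igf2 had r = -0.72 (exact permutation p = 0.0193, adjusted 0.0966), rho = -0.50 (p = 0.178, adjusted 0.333) and -0.75 within groups, but -0.28 without 6 h replicates 2 and 3. These pairs beyond those with Ttr were examined after their values were seen.

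How common correlations of that size were depended on the gene they were counted from. Of all tested probe sets, 4.56% had an r with Enpp2 as low as that of Igf2 or lower, and 1.46% as low as that of Igfbp2. Counted from the other gene of each pair, the shares were 3.33% for Igf2 and 0.0966% for Igfbp2. With Igf2, 11.4% had an r at or above that of Igfbp2, and with Folr1, 2.84% had one at or above that of Aqp1. Enpp2 and Igf2 also followed the main axis on which the 9 arrays differed. The first principal component of the tested probe sets, which held 45.0% of the variance and was computed with these probe sets among them, had r = 0.89 with Enpp2 (exact permutation p = 4.216e-04, adjusted over 12 relations 0.00506; rho 0.97, p = 1.653e-04) and r = -0.85 with Igf2 (exact permutation p = 0.00227, adjusted 0.0136; rho -0.88, p = 0.00308). Within groups these were 0.86 and -0.93, and without 1 h replicate 3 and 6 h replicate 1, the arrays farthest out, 0.91 and -0.72. For Ttr r was 0.54 (p = 0.129), for Igfbp2 -0.64 (p = 0.0622), for Aqp1 0.40 (p = 0.289) and for Folr1 0.044 (p = 0.912), all exact permutation tests. How many of all tested probe sets had an r of this size with the component was not counted. These values therefore do not set Enpp2 and Igf2 apart from other probe sets. A measure of RNA integrity, the 3′ beta-actin control probe set over the 5′ one on the log2 scale, was 1.35 ± 0.08 in control, 1.85 ± 0.41 at 1 h and 1.84 ± 0.78 at 6 h (SD, n = 3). Its r with the 6 genes ran from -0.42 (Enpp2) to 0.29 (Igf2), with a smallest exact permutation p of 0.267, and its part in the results was not tested further.

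**Figure D4:**
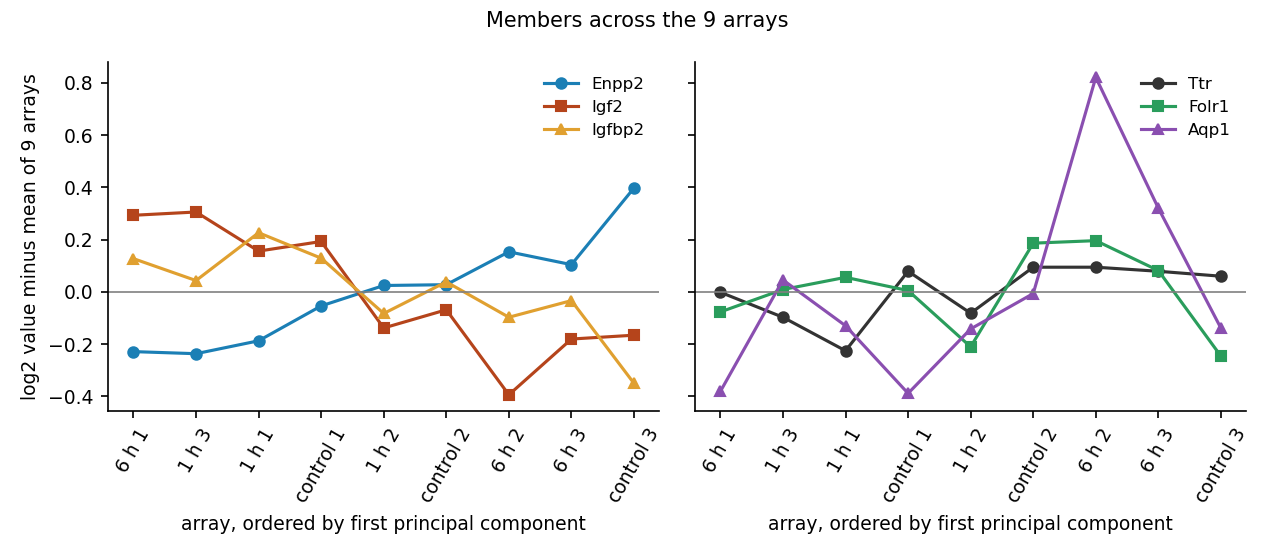
Log2 value of each gene minus its mean over the 9 arrays (vertical axis), with the arrays ordered by the first principal component; the label gives group and replicate. On the left Enpp2 climbs from 6 h replicate 1 to control 3 while Igf2 and Igfbp2 descend; on the right Ttr stays within a range of 0.32 while Aqp1 peaks on 6 h replicate 2 and spans 1.21.

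Some genes varied less than is usual and some more. The SD within groups of Ttr, 0.055 on the log2 scale, was larger than that of only 1.30% of tested probe sets, but bright probe sets vary little in general: among the 500 tested probe sets nearest to it in mean, 58.1% had a smaller range over the 9 arrays. The same share was 82.0% for Enpp2, 80.2% for Igf2, 68.1% for Igfbp2, 14.2% for Folr1 and 88.4% for Aqp1. By this measure Folr1 was steady for its level, while Aqp1, Enpp2 and Igf2 were among the more variable probe sets of theirs.

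The genes whose order over the 9 arrays was most like that of each member were none of those on the choroid plexus list. For Ttr these were Rfx1 (r = 0.91), the neuropeptide gene Nts (0.90) and Taf3 (0.90). For Enpp2 they were the proteasome subunit Psmd11 (0.98), the phosphatase Ptpn4 (0.97) and the proton pump subunit Atp6v0a2 (0.97). For Folr1 they were Wdr46 (0.95), Mta3 (0.88) and Ttc9 (0.87), and for Aqp1 the kinase Wee1 (0.92), Chchd6 (0.91) and Zfp354a (0.90). For Igf2 they were Tmem177 (0.99), Ppp6r1 (0.98) and the lysosomal protein Lamp1 (0.97), and for Igfbp2 Rprm (0.97), Fkbp8 (0.96) and Arf5 (0.95). These are the highest Pearson values among the single-gene probe sets tested, over arrays that share 3 groups and 1 main axis, and are given as a description. Of all tested probe sets, 0.677% had r above 0.9 with Enpp2, 0.918% with Igf2, 0.161% with Igfbp2, 0.0215% with Aqp1, 0.0161% with Ttr and 0.00537% with Folr1.

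Of a wider list of 25 choroid plexus epithelium genes, 22 were on the array and 12 passed the filter. At 1 h, 1 of the 12 had all its values above control and 3 had all below. A 1 h group wholly below control was found for 8.26% of all tested probe sets, and the share wholly above was not counted. The other 10 lay under the filter, among them Otx2, a transcription factor of the epithelium, with a mean signal of 13.5. The potassium channel Kcnj13 had 14.0, Tmem72 5.79 and Kl, which encodes klotho, 3.71. Genes of the epithelium that passed included Car14 with a mean signal of 136, Slc13a4 with 70.3, Kcne2 with 28.1 and Cldn2 with 27.5. Of the 12 that passed, 7 had a positive log2 change at 1 h (median 0.025) and 8 at 6 h (median 0.061), and limma called 0 of its 14 probe sets in the fit in either (lowest adjusted p 0.299 and 0.93). The smallest p values belonged to Sostdc1, an antagonist of BMP and Wnt signals, with -0.45 ± 0.11 at 1 h (limma adjusted p = 0.299) and -0.20 ± 0.11 at 6 h (adjusted p = 0.987), to Ecrg4 with 0.38 ± 0.14 at 1 h (adjusted p = 0.391) and to Wfdc2 with 0.54 ± 0.16 at 6 h (adjusted p = 0.93). Sostdc1 had signals of 167, 170.2 and 179 in control, 109, 116 and 124 at 1 h, and 152, 145 and 138 at 6 h, so that its 1 h arrays were the lowest of the 9. The summed signal of the list ran from 933 to 1057 in control, from 845 to 982 at 1 h and from 927 to 1050.3 at 6 h, with the lowest value on 1 h replicate 1, where the members' own sum was lowest too. That sum was mostly Ttr, with 3800 of 6320 on this array. No other member's tested probe set had its lowest signal there, and Igfbp2 had its highest (759.7), so the members did not drop together.

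Other tissues near the hippocampus were read by lists in the same way, and limma called 0 of their probe sets in any comparison. Ependyma, the ciliated lining of the ventricles, had 9 of 10 genes above the filter, with 8 of 9 log2 changes positive at 1 h (median 0.29) and 8 of 9 at 6 h (median 0.13); Rarres2 had 0.34 ± 0.10 at 1 h and 0.23 ± 0.10 at 6 h, and Tmem212 0.39 ± 0.14 and 0.35 ± 0.14. The ependyma sum was 986 to 1187 in control and 1170 to 1311 at 1 h, overlapping slightly, while that of the choroid plexus list was not raised. Meningeal and fibroblast genes, the other known source of Igf2, had 18 of 20 above the filter, 11 of 18 positive at both times (medians 0.025 and 0.020), and a sum whose highest value was 1.12 times its lowest; Fmod had 0.39 ± 0.18 and Igf2r -0.38 ± 0.22 at 1 h, Aldh1a2 -0.26 ± 0.14 and Slc6a13 -0.23 ± 0.15 at 6 h. Igf2r is also on the list of the insulin-like growth factor system, so its values cannot be assigned to meninges or fibroblasts. Vessel genes had 12 of 16 positive at 1 h and 10 of 16 at 6 h (medians 0.050 and 0.11), with Cldn5, a tight junction gene, at 0.18 ± 0.10 and 0.21 ± 0.10, Myh11 at 0.23 ± 0.17 at 1 h and Abcb1a at 0.33 ± 0.19 at 6 h.

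**Figure D5:**
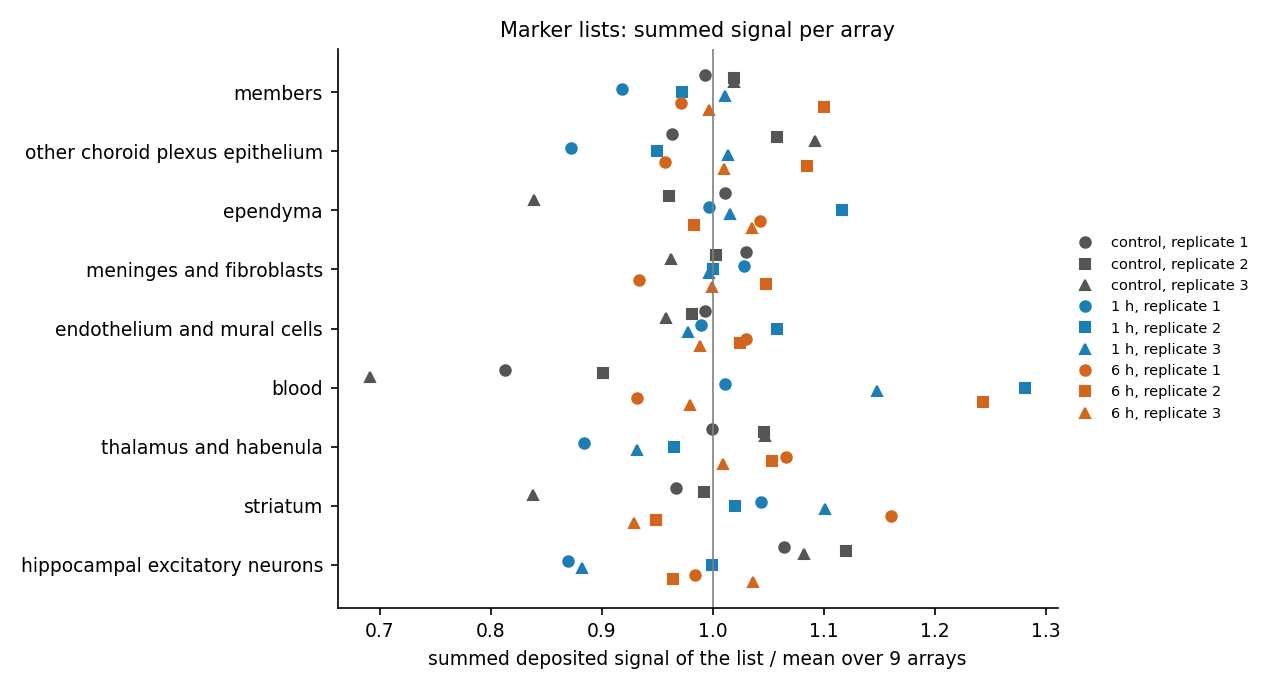
Summed deposited signal of each marker list divided by its mean over the 9 arrays (horizontal axis), 1 probe set per gene; colours are groups and shapes are replicates. The members' sum runs from 6320 to 7568, 1.20-fold from lowest to highest, whereas that of the blood list, with all control arrays lowest, spans 1.85-fold.

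The list that differed most between arrays was blood, with 3 genes on the array. The globin gene Hbb, in a probe set whose _x_at name marks probes shared with similar sequences, had signals of 3152, 3489 and 2686 in control, 3950.3, 5060.1 and 4469.5 at 1 h, and 3617, 4853 and 3832 at 6 h. Every ketone body array lay above every control array. The log2 changes were 0.39 ± 0.12 at 1 h (limma adjusted p = 0.335) and 0.32 ± 0.12 at 6 h (adjusted p = 0.987), with Alas2 at 0.18 ± 0.16 and 0.25 ± 0.16, and Slc4a1 lay under the filter. The members did not share this order, since control Ttr signals lay inside the range of the ketone body arrays. Thalamus and habenula genes had 3 of 7 positive at 1 h and 4 of 7 at 6 h (medians -0.15 and 0.010), with Tac3 at 0.47 ± 0.14, Tcf7l2 at -0.44 ± 0.15 at 1 h, and Rgs16 at 0.43 ± 0.13 and Tac3 at 0.38 ± 0.14 at 6 h. Striatal genes had 7 of 8 and 5 of 8 positive (medians 0.20 and 0.031), with Syndig1l at 0.29 ± 0.14 and Gpr6 at 0.36 ± 0.18 at 1 h, Ppp1r1b at 0.27 ± 0.14 and Adora2a at 0.16 ± 0.14 at 6 h. Their part in the values of the 6 genes was not tested.

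Among cells of the hippocampus itself, excitatory neuron markers had 9 of 12 negative log2 changes at 1 h (median -0.29; Prox1 -0.39 ± 0.11, Bhlhe22 -0.37 ± 0.11) and 8 of 12 at 6 h (median -0.13; Neurod6 -0.34 ± 0.11, Tbr1 -1.29 ± 0.47), and their sum was 8155 to 8580 in control, 6663 to 7653 at 1 h and 7385 to 7938 at 6 h, below control on every ketone body array. Within this list C1ql3 alone had signals of 683, 887 and 1028 in control, 375, 690 and 131 at 1 h, and 164, 715 and 918 at 6 h. The lowest control sum, 8155, and the highest 6 h sum, 7938, lie closer together than these signals of 1 gene. Whether the sums keep their order without C1ql3 was not tested. Over all 20 tested probe sets of this list the lowest limma adjusted p was 0.0510 at 1 h, just above the threshold, and 0.904 at 6 h. The 1 h value came from a dimmer probe set of a listed gene, since Prox1 and Bhlhe22 each had 0.335. General neuron markers had 8 of 10 negative at 1 h (median -0.059; Map2 -0.30 ± 0.13, Rbfox3 -0.17 ± 0.11) and 9 of 10 at 6 h (median -0.061; Nefl -0.11 ± 0.06, Rbfox3 -0.17 ± 0.11). Oligodendrocyte markers were mixed, with 6 and 5 of 11 positive (medians 0.010 and -0.007; Mobp -0.12 ± 0.06 and Ugt8 -0.31 ± 0.16 at 1 h, Ugt8 -0.24 ± 0.16 and Ermn -0.15 ± 0.10 at 6 h), as were astrocyte markers, with 4 and 5 of 8 (medians -0.016 and 0.029; Gja1 -0.21 ± 0.06 and S100b 0.10 ± 0.06 at 1 h, S100b 0.08 ± 0.06 and Slc1a2 -0.19 ± 0.13 at 6 h). Of the insulin-like growth factor system, to which Igf2 and Igfbp2 belong, 18 probe sets were above the filter, and limma called 0 of them. With both genes included, 10 of 12 log2 changes were positive at 1 h (median 0.15) and 8 of 12 at 6 h (median 0.051). The receptor Igf1r had -0.68 ± 0.20 (limma adjusted p = 0.348) and the ligand Igf1 0.60 ± 0.19 (adjusted p = 0.356) at 1 h, while at 6 h Igf1r had -0.39 ± 0.20 and the insulin receptor substrate Irs2 0.27 ± 0.15 (adjusted p = 0.987 each).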

How the data were processed

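The deposited table holds linear signal intensity for 31099 probe sets, 1 column per array. The sources used here do not give the software or filters behind it. Trimmed by 2% at each end, the mean of a column was about 150.05 throughout, as a scaling to 1 target would leave it. The 57 control probe sets were left out, log2(signal + 16) was quantile normalized, and probe sets with a mean under the 40th percentile (log2 5.21) were left out, leaving 18625. These, not the members alone, were fitted with limma 3.58.1 in R 4.3.3 (1 coefficient per group, intensity trend, 2-sided, Benjamini-Hochberg adjusted p over all of them, threshold 0.05). Symbols came from the platform annotation: 20826 probe sets have 1 symbol, 436 several and 9780 none. The members and lists were chosen with earlier results of these data known. Named were all member probe sets, the 3 genes most alike by Pearson r, and from each list genes that passed or else the 2 with the smallest p at 1 h and at 6 h. A gene of a list was read by its brightest probe set. Correlations used exact permutation tests over pairings of arrays. Tested on simulated data for 1 h against control with 18625 probe sets, the fit recovered 75.3% of changes of 1 and 97.4% of changes of 2 on the log2 scale, with 0 wrong signs. The simulated noise was independent between probe sets and had no axis shared by the arrays. Smaller changes, as those of the 6 genes were, were not simulated, so recovery at their size is not known. No background was measured, and the number of arrays limits the precision. Figures were drawn with matplotlib 3.10.9.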

Additional observations from a re-analysis of the deposited data

How the results depend on the processing

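In each of the 16 alternatives to the fit 0 member probe sets passed an adjusted p of 0.05 by limma, with all 10 member probe sets tested where the filter was dropped and 5 under a 60th percentile filter. Counts over all probe sets moved more: at 1 h the 6 calls (4 higher, 2 lower) were 9 as deposited (5 higher, 4 lower) and became 3 with no filter and 2 with the replicate block, and 0 to 10 with 1 array left out (10 without 6 h replicate 1, 3 without 1 h replicate 2, 6 without 6 h replicate 2, 2 without 6 h replicate 3 and 0 without each other array). At 6 h the 5 calls (4 higher, 1 lower) became 2 higher and 0 lower as deposited, 1 higher and 0 lower with median centring, 2 with no filter, 1 with the replicate block and 1 without any single array. For 6 h against 1 h limma gave 0 calls in every setting, beside 507 probe sets at unadjusted p under 0.05. The labels do not say whether replicate numbers pair the arrays. Deviations from group means of same-numbered arrays correlated from -0.36 to 0.54, with 3 of 9 pairs over 0.1. For differently numbered arrays of different groups the range was -0.43 to 0.53. Such ranges cannot show whether arrays were paired, and the block changed no call of a member.

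Directions of small changes turned often. Median centring turned Ttr to 0.032 at 1 h and 0.11 at 6 h, Enpp2 to 0.0053 and Igf2 to 0.0036 at 6 h, and the correlation of Ttr with Igfbp2 to 0.014; values as deposited turned Ttr to 0.036 at 6 h. With 1 array left out the 1 h log2 changes ran from -0.15 to 0.072 for Folr1, -0.0028 to 0.19 for Aqp1 and -0.022 to 0.22 for Igfbp2. Those at 6 h ran from -0.038 to 0.0086 for Ttr, -0.20 to 0.022 for Enpp2, -0.029 to 0.19 for Folr1, -0.27 to 0.070 for Igf2 and -0.086 to 0.16 for Igfbp2, and for 6 h against 1 h from -0.14 to 0.020 for Igfbp2. The correlations of Enpp2 with Igf2 and Igfbp2, whose alternatives were added after seeing the data, stayed negative in all of them; with Igfbp2 median centring gave -0.84 (adjusted p = 0.0509), and with Igf2 values as deposited gave -0.84 (adjusted p = 0.0336).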
